A study of Mus musculus with 24 samples.

Results

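The comparison set all 12 arrays of the mouse myeloma cell lines 595sp and 595sp VR against all 12 arrays of the lines 638bm and 638bm VR. Together these are all 24 arrays of the series. Every line was a multiple myeloma derived culture from Bcl-XL/Myc double transgenic mice on an FVBN background crossed with BL/6, so both transgenes were shared by every group. The lines 595sp and 638bm were labelled sensitive to bortezomib, a proteasome inhibitor, and the lines named VR were labelled resistant. Each line was profiled on 6 arrays, namely 1 untreated at 0 h, 1 each at 2, 8 and 16 h in 33 nM bortezomib, and 2 at 24 h. Arrays were matched by VR status and by the time in their titles, which gave 10 matched pairs once both 24 h arrays of a line were combined into their mean. For 4 of the 6 arrays of 638bm VR the separate time label differed from the title, and the title was used. The series was described as time courses after the drug; the question here was which genes separated both lines named 595sp from both lines named 638bm at every time and in both VR states. Only 1 tumour stood behind each name, through 2 related lines each, and no label said that arrays came from separate cultures. The p-values therefore measure the spread between these lines and arrays, and tumour, line and name cannot be told apart.

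Myeloma cells are malignant plasma cells, the antibody-secreting end of the B lineage, whose identity rests on transcription factors such as Irf4 and Xbp1 and on the surface proteoglycan Sdc1. Tumours that arise from the same oncogenes in different animals carry their own secondary changes, in gene regulation and in chromosome content, and cell lines keep such features in culture. Surface receptors, adhesion molecules and survival proteins of the BCL2 family are among the genes best known to differ between myelomas.

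The 4 lines carried defining plasma cell markers in part. Sdc1, Irf4 and Xbp1 gave signals above background on all 6 arrays of each line, whereas Prdm1 and Tnfrsf17 did so on 0 arrays. The T cell receptor complex gene Cd3e was above background on 3 of 24 arrays, the myeloid gene Lyz2 and the stromal gene Col1a1 on 0. Other markers did give signal, listed here for 595sp, 595sp VR, 638bm and 638bm VR in turn. Cd3g was above background on 6, 6, 0 and 0 arrays and the myeloid gene Csf1r on 6, 3, 2 and 0. For the erythroid genes Hba-a1 and Klf1 it was 5, 0, 0 and 0 and 2, 0, 0 and 1. The B cell genes Pax5 and Ms4a1 had 0, 2, 4 and 1 and 1, 0, 1 and 1. Itgam and Pdgfrb each had 1, 0, 0 and 0. Between 15239 and 17356 of the 45281 probes exceeded background on an array. The correlation of log2 levels over all genes tested had a median of 0.996 between both 24 h arrays of a line, 0.980 between other times of a line, 0.925 between the lines of 1 origin and 0.916 between origins at the same VR status. Origin accounted for 30.8% of the variance of all genes tested, VR status for 24.3%, their combination for 19.5% and time for 12.8%.

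Neither the transgenes nor the target of the drug were called different between the origins. Myc, the transgenic oncogene, ranged on the 595sp lines from 8.94 to 10.82 log2 units with a median of 10.14, and on the 638bm lines from 9.50 to 10.79 with a median of 10.47. Bcl2l1, which encodes Bcl-XL, ranged from 12.96 to 14.93 with a median of 14.13 against 13.92 to 14.91 with a median of 14.56. The groups overlapped for both genes, with log2 differences of 595sp minus 638bm of -0.47 (SE 0.40) for Myc and -0.30 (SE 0.29) for Bcl2l1 and limma adjusted p of 0.602 and 0.678. Psmb5, the proteasome subunit that bortezomib binds, differed by -0.27 (SE 0.27, limma adjusted p = 0.689). Whether these probes read the transgenes was not tested.

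A gene was called where its limma adjusted p over all 10974 genes tested was under 0.05 and its mean difference was at least 1 log2 unit the same way in the sensitive pair of lines and in the VR pair. Of the genes tested, 319 were called (2.91%), 213 of them higher in the 595sp lines (1.94%) and 106 higher in the 638bm lines (0.966%). At an adjusted p under 0.05 alone limma counted 792 genes (7.22%), and 334 genes (3.04%) met the size rule in both pairs whatever their p. The call rule used the same 10 matched pairs, which leaves little room for a pair of the other sign, and among the called genes only Cdkn1a had one. Cdkn1a, an inhibitor of cyclin-dependent kinases, was 1.90 higher in the 595sp lines on the log2 scale (SE 0.54, limma adjusted p = 0.0448) but lower by 0.67 in the VR pair at 2 h. It was called in only 8 of 21 other settings and not without background correction. The median size of the called differences was 1.76 log2 units and the largest was 6.39. All 12 arrays of one origin lay above all 12 of the other for 486 genes (4.43% of those tested), 313 higher in the 595sp lines (2.85%) and 173 higher in the 638bm lines (1.58%), and 263 of them were called. When each line was reduced to 1 mean, 2 lines against 2 left 1 residual degree of freedom and limma called 0 genes, with 789 genes (7.19%) at an unadjusted p under 0.05. Without background correction 206 genes were called.

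**Figure D1:**
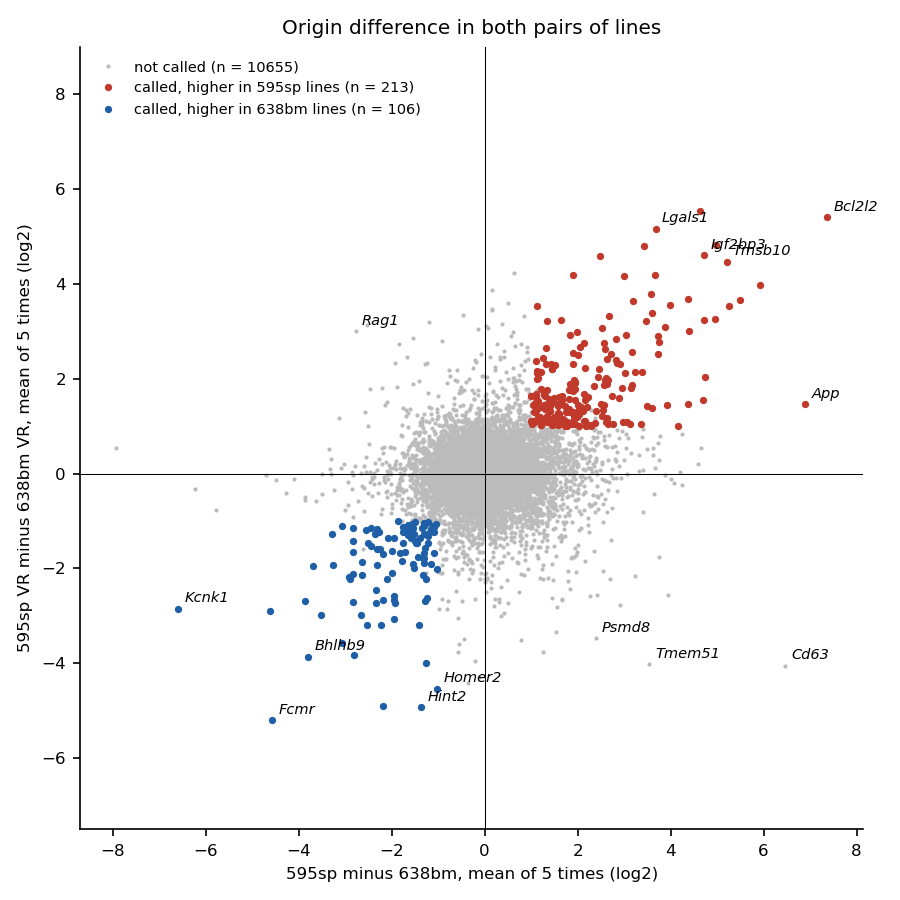
Each point is 1 of 10974 genes. The horizontal axis gives the mean log2 difference of 595sp minus 638bm over 5 times and the vertical axis that of 595sp VR minus 638bm VR. The 213 red genes lie at or above 1 on both axes and the 106 blue genes at or below -1 on both, and Bcl2l2 stands farthest from 0 with 7.37 and 5.40. Cd63, Tmem51 and Psmd8 lie far from 0 on both axes with opposite signs.

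The plot of the pair differences shows called genes along both diagonal quadrants, with many uncalled genes far out along 1 axis only. Of the called genes, 43 were above background on all or some arrays of the 595sp lines and on no array of the 638bm lines, and 14 showed the reverse. A further 150 of the 319 called genes were above background on all 24 arrays, 98 of them higher in the 595sp lines and 52 higher in the 638bm lines. The same held for 6811 of the 10974 genes tested, so called genes were less often above background throughout. For the 43 and 14 genes no such share over all genes tested is given.

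The genes named by a fixed rule as higher in the 595sp lines are taken by their known roles. Bcl2l2 encodes Bcl-w, a death-inhibiting relative of Bcl-XL. Its probe ranged from 9.98 to 13.47 log2 units with a median of 10.55 on the 595sp lines and from 4.79 to 5.26 with a median of 4.94 on the 638bm lines. The arrays did not overlap, although within 595sp both 24 h arrays lay below the other times, as the plot of the leading genes shows. The difference was 6.39 log2 units (SE 0.62, limma adjusted p = 1.49e-05), 7.37 in the sensitive pair and 5.40 in the VR pair. Its 5 probes disagreed, since a second probe differed by 5.60 and the other 3 by -0.03, 0.21 and 0.76. None of the 638bm arrays was above background for the probe used, but 11 of 12 were for some probe of the gene.

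Igf2bp3, an RNA-binding protein of fetal tissues and many tumours, ranged from 9.62 to 10.27 with a median of 9.87 on the 595sp lines. On the 638bm lines it lay between 4.89 and 5.44 with a median of 5.20, and its probe was above background on 1 of 12 arrays, or any probe of the gene on 2. The difference of 4.66 log2 units (SE 0.21, limma adjusted p = 6.76e-09) was thus set against signal mostly at background. It was close in both pairs of lines, at 4.72 and 4.60. Other probes of Igf2bp3 differed by 4.59, 2.81, 2.04 and 0.33. Tmsb10, which binds actin monomers, was well above background on every array and still 28.6-fold higher in the 595sp lines. Its levels were 13.51 to 14.21 against 8.20 to 9.64, a difference of 4.84 (SE 0.24, limma adjusted p = 2.18e-08). Scin, an actin-severing protein, differed by 4.12 (SE 0.32), and the myosin Myo7a was at least 8.29-fold higher because no 638bm array exceeded background. Lgals1, the galectin secreted by many tumours, ranged from 11.78 to 12.66 against 6.55 to 9.35. Its difference was 4.42 log2 units (SE 0.45, limma adjusted p = 2.22e-05), and the lipid raft protein Flot2 differed by 2.34.

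Several of the named genes encode surface receptors or adhesion molecules. Itgb7, the integrin beta chain that serves lymphocyte homing to the gut, ranged from 8.12 to 11.89 with a median of 9.78 in the 595sp lines and from 4.61 to 6.23 with a median of 5.39 in the 638bm lines. Within 595sp its level was highest untreated, and no array of one origin reached the other. The difference was 4.57 log2 units (SE 0.37, limma adjusted p = 2.62e-06). The tetraspanin Cd9 differed by 4.11 (SE 0.44), the interleukin 7 receptor gene Il7r by 2.98 (SE 0.26) and the G protein-coupled receptor gene Gpr171 by 5.09 (SE 0.39), with limma adjusted p of 3.51e-05, 4.89e-06 and 1.63e-06. In each of these 3 genes the 638bm line was above background on all 6 arrays and 638bm VR on 0. Other probes of Il7r differed by 1.15, 0.44 and 0.27.

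Fcer1g, the signalling chain shared by several Fc receptors, ranged from 8.44 to 11.31 against 4.54 to 5.47, a difference of 4.94 (SE 0.33, limma adjusted p = 3.72e-07). It is also a myeloid marker and 1 of the 12 myeloid and dendritic genes tested. The summed level of the other 11, without Fcer1g, ranged on the log2 scale from 10.67 to 11.16 in 595sp, from 9 to 9.19 in 595sp VR, from 8.72 to 9.15 in 638bm and from 10.05 to 10.35 in 638bm VR, so that 595sp was highest but 595sp VR lay below 638bm VR. Of the 29 listed myeloid genes on the array, 6, 4, 2 and 3 were above background on every array of these lines in turn, and 17, 22, 24 and 25 on none. Csf1r was above background on 6, 3, 2 and 0 arrays, Itgam on 1 of 24 and Lyz2 on 0, and the part of other cells in the Fcer1g difference was not tested. Cd3g, a chain of the T cell receptor complex, was above background on all 12 arrays of the 595sp lines, from 6.76 to 9.83, and on 0 of the 638bm lines. It was at least 8.27-fold higher (limma adjusted p = 0.000268), while the summed level of the other 8 T and NK cell genes tested lay between 11.13 and 11.92 in both 595sp lines and between 11.23 and 12.83 in both 638bm lines. In bulk RNA, fewer cells of a type and less RNA per cell cannot be told apart.

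Other named genes encode transcription factors and enzymes. Foxp1, a forkhead factor of B cell development, ranged from 8.14 to 8.93 against 4.53 to 5.02 and differed by 3.78 (SE 0.21, limma adjusted p = 3.77e-08). The probe used was above background on 0 of 12 arrays of the 638bm lines, so this difference was set against signal at background. At any probe of the gene 6 of these 12 arrays were above background, and a second probe of Foxp1 differed by 0.26. Dnajc6, the auxilin that strips clathrin from vesicles, was at least 22.9-fold higher in the 595sp lines, since none of the 12 arrays of the 638bm lines exceeded background. Cpn1, a carboxypeptidase subunit of plasma, differed by 4.40 (SE 0.61), with 2.73 and 1.07 at its other probes. Of the enzymes above background on all arrays, the carbonyl reductase Cbr1 differed by 3.31 (SE 0.33) and the SET domain gene Setd4 by 2.59 (SE 0.37). Vps26c, part of an endosomal sorting complex, differed by 3.93 (SE 0.21, limma adjusted p = 3.43e-08), with 0.70 at its other probe.

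Of the genes named as higher in the 638bm lines, several encode surface receptors. Fcmr, the Fc receptor for IgM, ranged from 4.76 to 5.88 with a median of 5.20 in the 595sp lines and from 7.94 to 11.24 with a median of 10.46 in the 638bm lines. The difference was -4.88 log2 units (SE 0.57, limma adjusted p = 8.76e-05), and in 638bm the level was highest at 0 and 2 h. Gpr65, a proton-sensing receptor of lymphocytes, ranged from 4.60 to 5.48 against 7.58 to 9.51. It differed by -3.32 (SE 0.26, limma adjusted p = 1.77e-06), and both 638bm lines lay above every 595sp array. Nt5e, which encodes CD73 and makes adenosine outside the cell, differed by -3.28 (SE 0.30), and the pattern receptor gene Tlr1 by -2.34 (SE 0.28).

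Others of these named genes have roles in cell junctions, signalling and transcription. Bhlhb9 ranged from 4.46 to 5.11 in the 595sp lines, where no array exceeded background, and from 8.06 to 9.19 in the 638bm lines. It was at least 9.25-fold higher in the 638bm lines (limma adjusted p = 1.07e-06). Afdn, an actin-binding protein of adherens junctions, differed by -3.76 (SE 0.31, limma adjusted p = 2.62e-06), and 595sp VR lay above 595sp. The kinase subunit Pik3r3 differed by -2.86 (SE 0.29), the GTPase-activating domain gene Garnl3 by -3.33 (SE 0.46) and the mannosidase-like gene Maneal by -2.82 (SE 0.20). Insm1, a zinc finger factor of neuroendocrine cells, differed by -2.77 (SE 0.30). Of the genes above background on all 24 arrays and higher in the 638bm lines, the largest of the smallest pair differences belonged to Brf1, a factor of RNA polymerase III, and Klc1, a kinesin light chain. Klc1 ranged from 9.15 to 10.54 against 11.91 to 12.41, a difference of -2.53 (SE 0.23, limma adjusted p = 7.67e-06), and all 5 of its probes differed by between -2.45 and -3.06. Brf1 differed by -2.46 (SE 0.21), the cytochrome oxidase assembly gene Coa8 by -2.16, the hydratase-like gene Echdc2 by -2.39, the sulfotransferase gene Chst7 by -2.59 and Ppp1r13b, which encodes the p53-binding protein ASPP1, by -2.25. Ppp1r13b was the only one of these 5 that was no longer called when the probes of a gene were averaged.

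**Figure D2:**
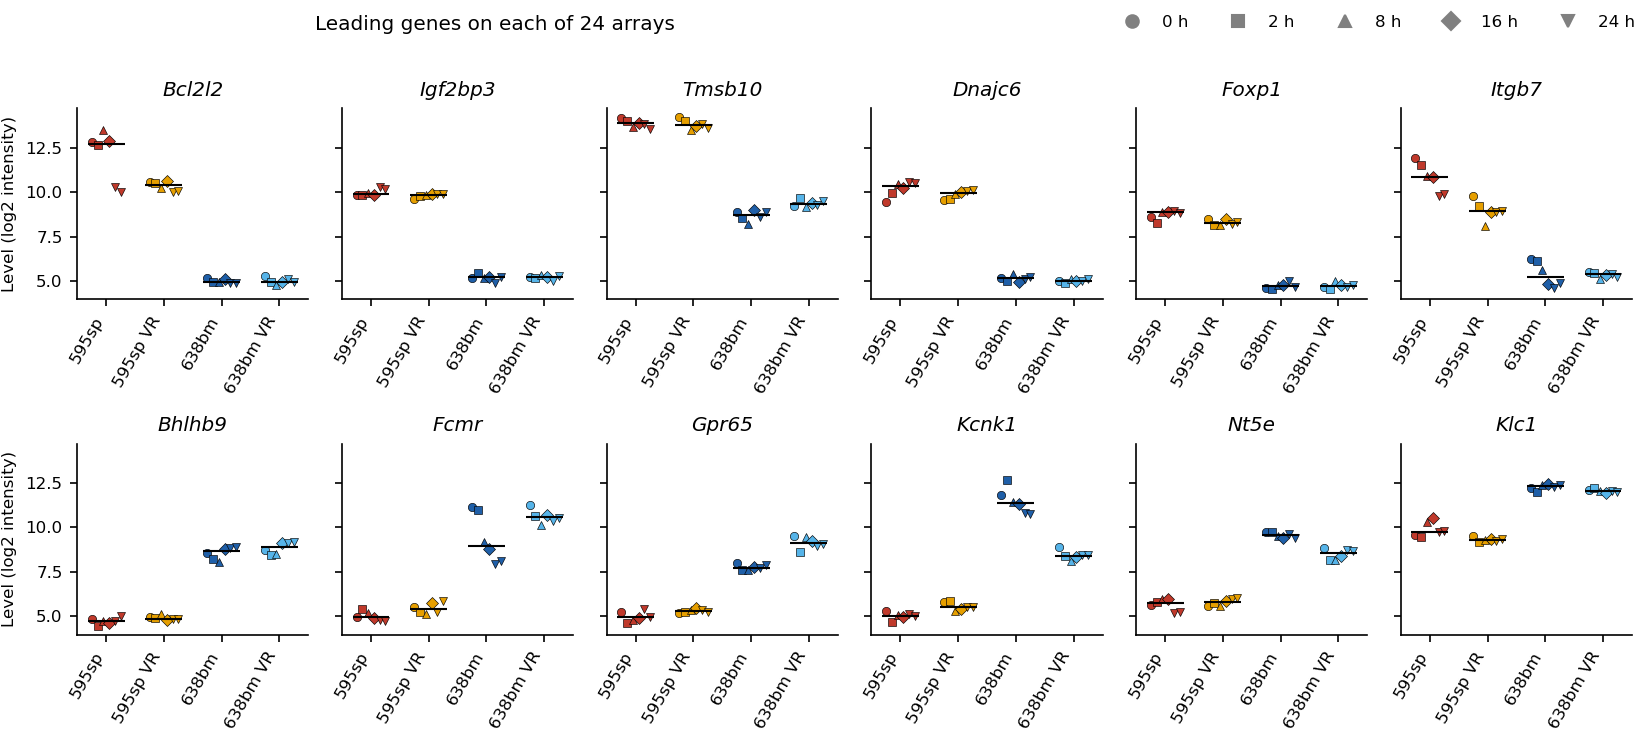
Level of 12 of the leading genes as log2 intensity on each of 24 arrays, with 6 arrays per line, symbols for time in bortezomib and a bar at the median of each line. The top row holds genes higher in the 595sp lines and the bottom row genes higher in the 638bm lines, and in none of the 12 panels do the arrays of the 2 origins overlap. Bcl2l2 in 595sp and Fcmr in 638bm spread over times by more than Igf2bp3 or Klc1 in any of the 4 lines.

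The plot of single arrays shows the separation of origins at each of the 5 times, beside movements over 24 h of drug within single lines such as that of Fcmr in 638bm. These genes were ranked by their smallest difference over the same matched pairs. Their separation at each time therefore followed from how they were chosen and is no separate result. Over all genes tested, 0 had an origin difference that changed between 0 and 24 h by limma's test at an adjusted p under 0.05, and 110 (1%) did so at an unadjusted p under 0.05. That test had 5 residual degrees of freedom and left the constant gap between the VR and sensitive pairs in its error. With that gap as a further term, added after the data were seen, limma again counted 0 genes at an adjusted p under 0.05 and 1035 at an unadjusted p under 0.05, with 4 residual degrees of freedom. These counts do not show that the differences were stable over time. In the sensitive pair, that of Bcl2l2 was 7.63 at 0 h and 5.23 at 24 h, and that of Fcmr was -6.17 and -3.25.

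Promoter sequence was described for the called genes from the RefSeq table of GRCm38.p6, with 250 bases before and 50 after the first listed start of each gene. The dinucleotide CG, searched as these letters and the same on both strands, was counted because promoters rich in CG tend to serve genes active in many tissues. A window was found for 8909 of the 10974 genes tested and 267 of the 319 called genes. The median CG number was 20 over the genes tested, 16 over called genes higher in the 595sp lines and 24 over called genes higher in the 638bm lines. The share with under 10 CG was 20.4% of the genes tested, 31.8% of those called higher in 595sp and 17.0% of those called higher in 638bm. Among called genes above background on all 24 arrays it was 14.2%, against 10.9% of all tested genes above background on all 24 arrays. Among called genes above background in the lines of 1 origin alone it was 45.7% (21 of 46), for which no matched share of tested genes is given. Of the windows of tested genes, 1820 of 8909 held under 10 CG, but only 615 of 5640 where the gene was above background on all 24 arrays. Windows with few CG were thus more frequent among tested genes not above background throughout, called or not. Of all 32851 windows in the table, 94.6% held at least 1 CG and 56.5% under 10. The windows of 4 leading genes are printed 5′ to 3′ on the gene's strand, each CG in capitals, because they span this range. The first has 25 CG and belongs to a gene higher in the 595sp lines, as does the second with 9. The third has 11 and the fourth 3, and both belong to genes higher in the 638bm lines.
Igf2bp3 (chr6:49214905-49215204, minus strand): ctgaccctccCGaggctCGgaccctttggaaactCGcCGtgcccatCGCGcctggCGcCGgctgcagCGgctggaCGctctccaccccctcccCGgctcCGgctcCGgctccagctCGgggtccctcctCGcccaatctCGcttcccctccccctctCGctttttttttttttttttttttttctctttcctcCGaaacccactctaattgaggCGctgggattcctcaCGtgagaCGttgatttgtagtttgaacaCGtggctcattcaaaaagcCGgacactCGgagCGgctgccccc
Dnajc6 (chr4:101507726-101508025, plus strand): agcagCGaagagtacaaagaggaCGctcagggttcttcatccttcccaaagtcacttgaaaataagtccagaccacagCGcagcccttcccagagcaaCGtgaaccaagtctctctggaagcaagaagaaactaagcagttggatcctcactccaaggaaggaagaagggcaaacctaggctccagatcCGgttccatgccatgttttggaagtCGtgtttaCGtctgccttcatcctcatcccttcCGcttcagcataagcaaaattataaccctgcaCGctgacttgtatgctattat
Bhlhb9 (chrX:135885601-135885900, plus strand): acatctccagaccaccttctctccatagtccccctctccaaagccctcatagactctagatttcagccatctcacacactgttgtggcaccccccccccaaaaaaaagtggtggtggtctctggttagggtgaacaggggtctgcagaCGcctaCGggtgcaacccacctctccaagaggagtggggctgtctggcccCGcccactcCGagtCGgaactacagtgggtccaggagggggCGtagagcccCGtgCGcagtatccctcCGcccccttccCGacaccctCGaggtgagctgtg
Gpr65 (chr12:98268385-98268684, plus strand): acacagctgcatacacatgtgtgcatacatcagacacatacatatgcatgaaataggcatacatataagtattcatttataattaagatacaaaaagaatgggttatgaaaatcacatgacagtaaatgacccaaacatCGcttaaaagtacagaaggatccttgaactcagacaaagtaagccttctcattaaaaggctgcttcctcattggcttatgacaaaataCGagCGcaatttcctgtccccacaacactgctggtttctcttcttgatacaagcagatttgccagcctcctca
These leading genes were chosen for their separation by origin, and their windows were printed because they span the range of CG numbers. That the windows were unlike followed from this choice and is no separate result. Of the window of Igf2bp3 60.3% was G or C, and of that of Gpr65 38.3% was. The counts are descriptions of these windows, and methylation was not measured.

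Lists of genes known for B cells, myeloma and drug response held few called members, and their counts are read against the 2.91% called over all genes, whose median difference was 0. Of 16 plasma cell identity genes tested, 2 were called, both higher in the 595sp lines, and the list's median was 0.45. These were Creb3l2, a transcription factor of the secretory pathway (1.53, SE 0.28), and the surface marker gene Ly6c1 (1.64, SE 0.34). A second probe of Creb3l2 differed by 0.14. Irf4, Xbp1 and Mzb1 differed by -0.20, 0.04 and 0.49 with limma adjusted p of 0.889, 0.972 and 0.224. Of 24 mature B cell genes, 1 was called, the Src family kinase gene Blk, and the median was 0.08. Of 4 immunoglobulin-related genes tested, 1 was called, the pre-B cell gene Vpreb3 (1.26, SE 0.35, limma adjusted p = 0.0421). Creb3l2, Ly6c1, Blk and Vpreb3 were no longer called without background correction.

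Of 31 adhesion molecules and integrins, Itgb7 and Cd9 were called and the median was 0.01. Of 38 cytokine and growth factor receptors, Il7r was called higher in the 595sp lines and Tlr1 higher in the 638bm lines, with a median of 0.10. Of 17 chemokine and receptor genes, 0 were called by the limma rule, with a median of 0.41, and Cxcr4, which retains plasma cells in the marrow, differed by -0.22. Of 26 BCL2 family and caspase genes, 1 was called, Bcl2l2, with a median of 0.19. Mcl1, on which many myelomas depend, differed by -0.85 (SE 0.23) with a limma adjusted p of 0.0378, short of 1 log2 unit in the VR pair. Bcl2 was near background in all 4 lines, with medians between 5.13 and 5.22.

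Of 28 genes recurrently deregulated in human myeloma, 1 was called, Itgb7, and the median was -0.21. The D-type cyclin genes, which drive entry into the cell cycle, were not called. Ccnd1 differed by -2.21 with a limma adjusted p of 0.042, but by -0.13 in the sensitive pair, and had medians of 5.88, 6.03 and 6.20 in 595sp, 595sp VR and 638bm and of 10.59 in 638bm VR. Ccnd2 was lowest in 638bm, with a median of 6.86 against 9.21, 8.69 and 9.46 in 595sp, 595sp VR and 638bm VR. Ccnd3 had medians from 9.85 to 10.84 in the 4 lines.

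Proteasome and stress genes held few calls. Of 27 proteasome subunits 0 were called, with a median of -0.12. Of 7 immunoproteasome genes and 19 heat shock and quality control genes 0 were called in each list. Of 34 glutathione and xenobiotic genes, 1 was called, the microsomal transferase gene Mgst3 (1.81, SE 0.24, limma adjusted p = 0.000224), with a median of 0.23. Of 14 p53 genes and targets and of 19 cyclins and inhibitors, Cdkn1a alone was called, a call that ended without background correction.

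Antigen presentation and interferon genes held 1 call in all, and their medians were larger in the sensitive pair than in the VR pair. Of 18 MHC class I genes and 13 MHC class II genes 0 were called. The class II median was 0.53 over all pairs, 0.76 in the sensitive pair and 0.08 in the VR pair. Of 34 interferon-stimulated genes, with medians of 0.74 and 0.02 in these pairs, 1 was called, Ifitm1, a membrane protein that restricts virus entry, at -1.73 (SE 0.28, limma adjusted p = 0.00123). Ifitm1 was higher in 638bm than in 595sp and in 638bm VR than in 595sp VR, but its arrays overlapped because both VR lines lay above both sensitive lines. Its call ended without background correction.

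Of 38 homeobox and developmental factors, 2 were called, both higher in the 595sp lines, with a median of 0.12. Hoxb5 ranged from 6.44 to 7.57 against 5.07 to 5.78, a difference of 1.43 (SE 0.26). Lef1, a factor of the Wnt pathway, was at least 1.79-fold higher, with no 638bm array above background, and both calls ended without background correction. Of 20 imprinted genes, 1 was called, the growth factor adaptor gene Grb10, which was at least 4.34-fold higher in the 595sp lines (limma adjusted p = 1.11e-05). A second probe of Grb10 differed by 0.16. Of the markers of other cells, 1 of 9 T and NK cell genes (Cd3g, 11.1%) and 1 of 12 myeloid genes (Fcer1g, 8.33%) were called by the limma rule, and 0 of 9 erythroid genes and 0 of 8 stromal genes, beside 2.91% over all genes in lists too short to compare.

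Sex-linked markers gave little signal. The 4 probes of Xist, the RNA that coats the inactive X chromosome, were above background on 0 of 24 arrays. The Y-linked gene Kdm5d was above background on all 6 arrays of 595sp, from 6.01 to 6.91, and on 0 arrays of the other 3 lines. Uty was above background on 8 of 12 arrays of the 595sp lines and 2 of 12 of the 638bm lines at any probe, and Eif2s3y on 1 array of 595sp. None of the 6 sex chromosome genes tested was called.

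Called genes were spread unevenly over the chromosomes in the gene order of GRCm38.p6. Chromosome 6 held 59 genes called higher in the 595sp lines among 524 tested (11.3%, against 1.94% over all genes) and 1 called higher in the 638bm lines (0.191%, against 0.966%). Its median difference was 0.46, with 84.2% of genes positive, and it was positive in all 10 pairs, from 0.26 to 0.69. Chromosome 12 held 20 genes called higher in the 638bm lines among 365 (5.48%) and 2 called higher in the 595sp lines. Chromosome 16 held 17 called higher in the 595sp lines among 352 (4.83%) and 2 in the other direction, and chromosome 13 held 12 called higher in the 638bm lines among 397 (3.02%).

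**Figure D3:**
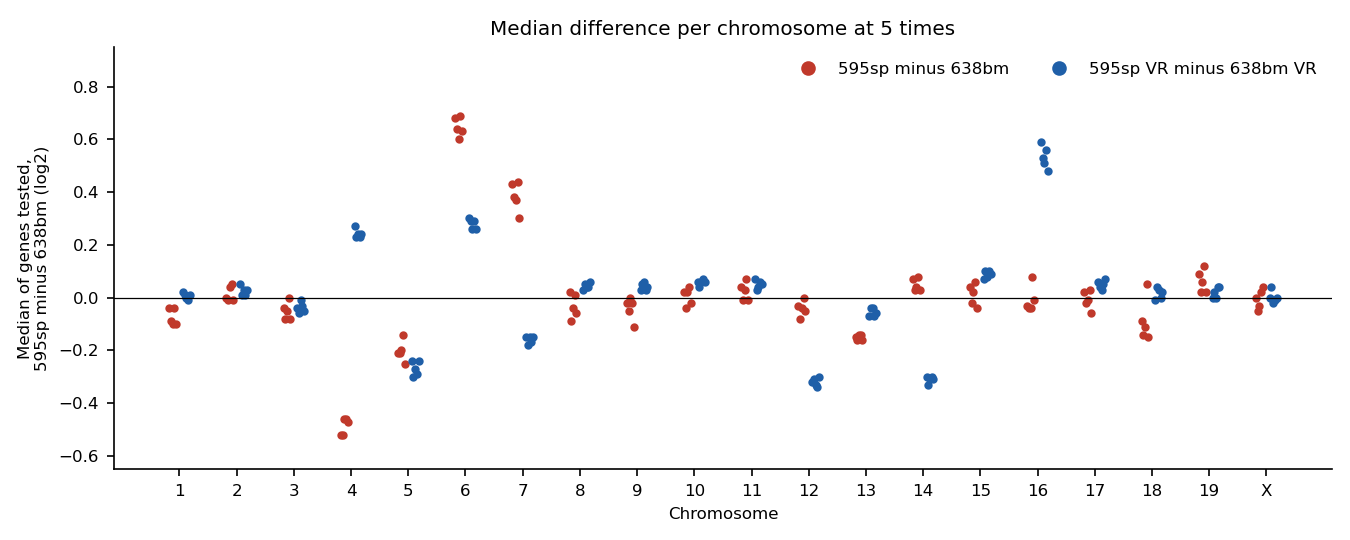
Median log2 difference of 595sp minus 638bm over the genes tested on each chromosome, with 1 point for each of 5 times in the sensitive pair (red) and the VR pair (blue). Chromosome 6 lies above 0.2 at every time in both pairs and chromosome 5 below -0.1, while chromosomes 4 and 7 take opposite signs in the 2 pairs.

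The plot by chromosome separates shifts shared by both pairs from shifts of 1 pair. Chromosome 5 had a median of -0.19 in the sensitive pair and -0.25 in the VR pair. Its called genes did not follow this sign. Among its 719 genes, 10 were called higher in the 595sp lines (1.39%, against 1.94% over all genes). Another 8 were called higher in the 638bm lines (1.11%, against 0.966%). Chromosome 4 had medians of -0.50 and 0.22 and chromosome 7 of 0.38 and -0.14 in the sensitive and VR pairs. Chromosomes 16, 12 and 14 were shifted in the VR pair, by 0.53, -0.34 and -0.31, and by -0.01, -0.05 and 0.06 in the sensitive pair. Their medians against the mean of the 4 lines were -0.36, 0.27 and 0.23 in 638bm VR. In 595sp VR these medians were 0.14, -0.08 and -0.06, so the shift lay mainly in 638bm VR. Shifts of whole chromosomes were descriptions over genes, which are not replicates, and DNA content was not measured.

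Within 3 of these chromosomes the called genes lay in stretches, whose limits were chosen after their values were seen. On chromosome 6, the 310 tested genes from the first to Foxp1 held 55 of the 59 genes called higher in the 595sp lines, and 171 of the 310 were higher in all 10 pairs. Their median was 0.78 (0.99 in the sensitive pair and 0.49 in the VR pair), a 1.72-fold difference, against 0.21 over the 214 genes after Foxp1. Members of this stretch serve many functions. They include Ezh2, a histone methyltransferase (1.40), Mcm2, a replication helicase subunit (1.27), Mad2l1, a spindle checkpoint protein (1.61), Cbx3, a heterochromatin protein (1.37), Cycs, cytochrome c (1.12), and Rab7, a late endosome GTPase (1.43), all called and named here after their values were seen. Tmsb10, Igf2bp3 and Foxp1 lay in the same stretch with differences over 3 log2 units, while Cd9, Cd69 and Emp1, at 4.11, 2.61 and 3.12, lay after it.

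**Figure D4:**
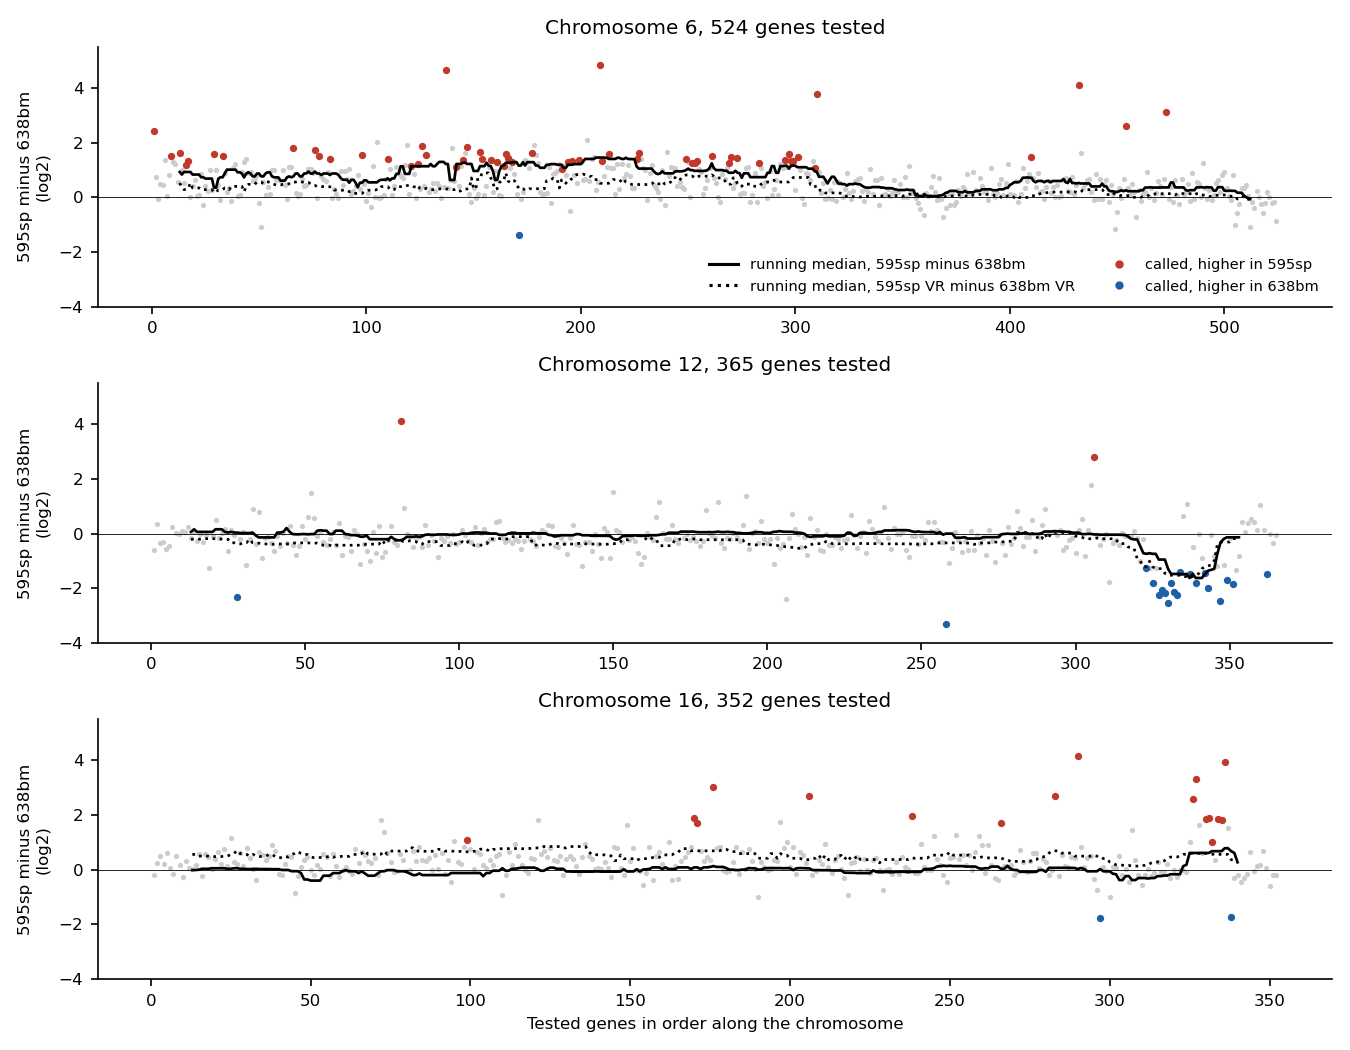
Log2 difference of 595sp minus 638bm for each gene tested on chromosomes 6, 12 and 16 in order along the chromosome, with red and blue for genes called higher in the 595sp and 638bm lines. Lines give running medians of 25 genes in the sensitive pair (solid) and the VR pair (dotted). Both lines stay above 0 over the first 310 genes of chromosome 6 and fall to -1.63 and -1.64 near the end of chromosome 12.

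In the plot along the gene order, both running medians on chromosome 12 dropped together near the end, to -1.63 and -1.64 in the window centred on Inf2. The 31 tested genes from Eif5 to Tedc1 held 17 genes called higher in the 638bm lines (54.8%) and 0 called the other way by the limma rule. Their median was -1.42, which is 2.68-fold, with -1.63 in the sensitive pair and -1.53 in the VR pair, and it lay between -1.83 and -1.38 in the 10 pairs. A run of 8 neighbours from Trmt61a to Atp5mpl was called throughout, with a median of -2.14. The run held Trmt61a, a tRNA methyltransferase (-2.24), Bag5, a chaperone regulator (-2.05), Coa8, Klc1, Xrcc3, a DNA recombination protein (-1.82), Zfyve21 (-2.12), Ppp1r13b and Atp5mpl, a small protein of the ATP synthase (-1.42). Siva1, a death-inducing protein (-1.80), Cdca4 (-1.98), Brf1, Pacs2 (-1.69) and Mta1, a chromatin repressor subunit (-1.86), followed.

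Not every gene of the stretch moved with it. The creatine kinase gene Ckb differed by 1.26 in the sensitive pair and by -3.76 in the VR pair, and Adssl1 by 1.67 and -2.64. Rd3l and Tdrd9 were lowest in 638bm VR, with VR pair differences of 2.40 and 2.05, and the kinase gene Akt1, dim on this array, differed by -0.02 (SE 0.22). The 322 genes before Eif5 had a median of -0.17 with 4 called, and the 12 tested genes after Tedc1, among them Ighg1 of the immunoglobulin heavy chain locus, had a median of 0.14 with 1 called.

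On chromosome 16, the 13 tested genes from Runx1 to Dyrk1a held 8 called higher in the 595sp lines, and 11 were higher in all 10 pairs. Their median was 1.83 (1.43 in the sensitive pair and 2.29 in the VR pair), which is 3.55-fold, and 11 of the 13 genes were above background on all 24 arrays. Setd4, Cbr1 and Vps26c, described above, were joined by the chromatin assembly gene Chaf1b (1.90), Morc3 (1.87), Pigp, which acts in glycolipid anchor synthesis (1.87), the ubiquitin ligase gene Ttc3 (1.83) and the biotin ligase gene Hlcs (1.03). Runx1 (1.02), Cbr3 (1.62) and Dyrk1a (1.54) passed limma's test at adjusted p of 0.00334, 0.0233 and 0.00669 but missed 1 log2 unit in the sensitive pair. The next called gene in order, Ets2, a transcription factor, was higher in the 638bm lines (-1.73), and the 15 genes after Dyrk1a had a median of -0.18.

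**Figure D5:**
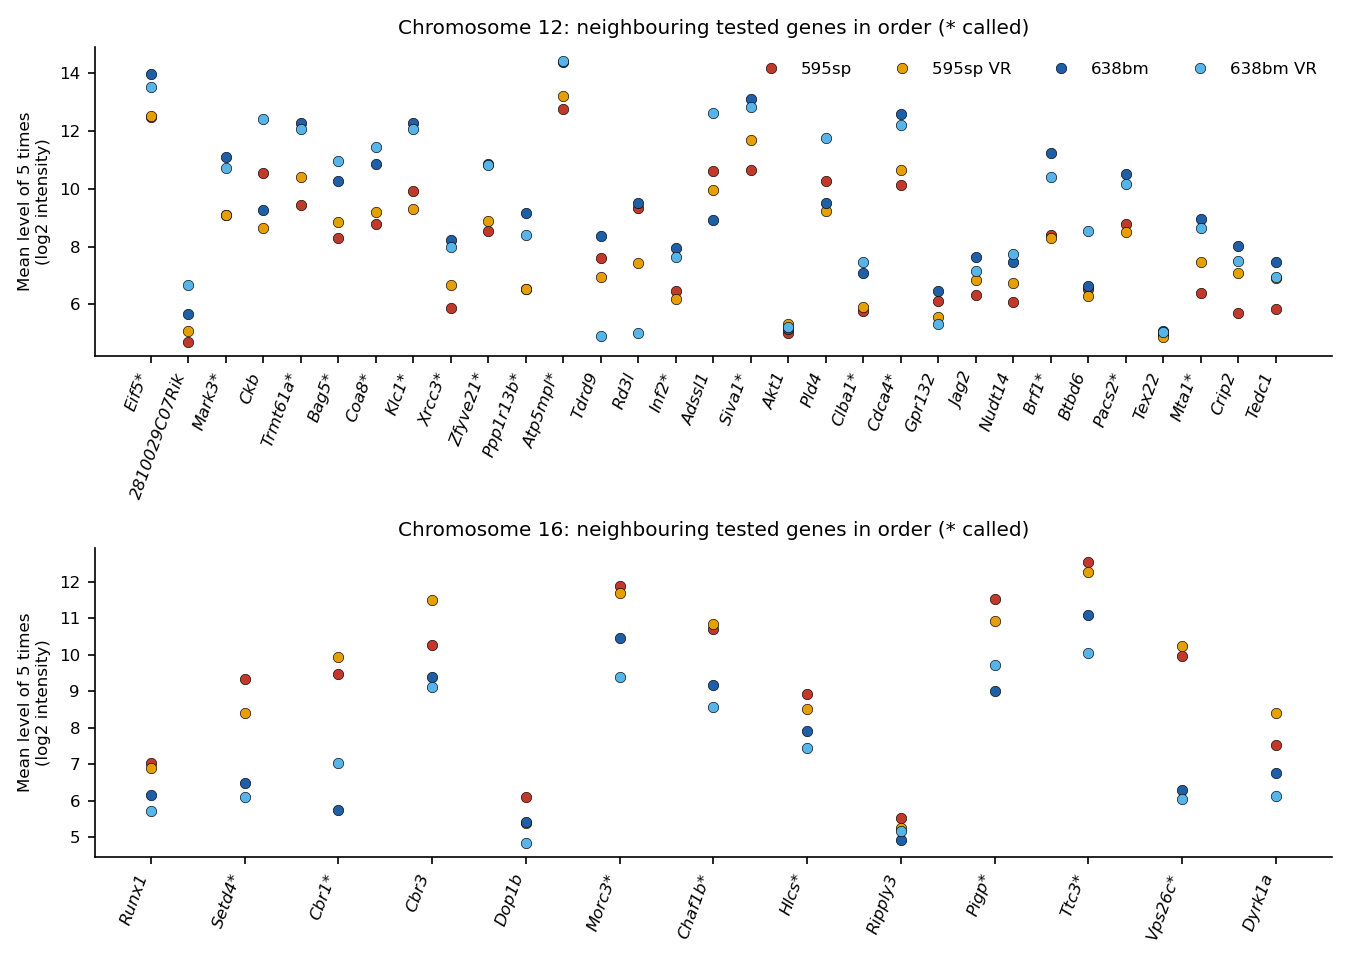
Mean level over 5 times, as log2 intensity, of each tested gene from Eif5 to Tedc1 on chromosome 12 and from Runx1 to Dyrk1a on chromosome 16, in order, for each of 4 lines. Asterisks mark called genes. Both blue points (638bm and 638bm VR) lie above the red and orange points (595sp and 595sp VR) in the 17 called genes of the upper panel. They lie below them in the 8 called genes of the lower panel. Some uncalled genes, such as Nudt14 and Runx1, show the same order as the called genes of their panel.

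The plot of the neighbouring genes shows the order of the lines gene by gene. Over all chromosomes, 33 of the 213 genes called higher in the 595sp lines (15.5%) had a neighbouring tested gene called the same way, against 3.75% of all tested genes that lay beside such a gene. For the 106 genes called higher in the 638bm lines it was 18 (17.0%), against 1.82%. The stretch medians kept their sign in each alternative setting, those without 1 pair of lines included. They ran from -1.63 to -1.22 for chromosome 12, from 1.43 to 2.29 for chromosome 16 and from 0.49 to 1.06 for chromosome 6. The limits of the stretches were chosen from these same values, so the kept sign is no separate result.

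The size of the origin difference often depended on the pair of lines. The VR pair and the sensitive pair differed by limma's interaction test in 5556 genes (50.6%), in 178 of the called genes (55.8%), and by more than 1 log2 unit (limma's treat test) in 944 genes (8.6%) and 30 called genes. Each combination of origin and VR status was 1 line, so VR status and line cannot be told apart, and the spread in this test was that over times within lines. App, the amyloid precursor protein gene, ranged from 11.20 to 13.09 in 595sp, from 6.53 to 7.02 in 595sp VR, and from 5.02 to 5.65 in both 638bm lines. Its origin difference was 6.89 in the sensitive pair and 1.46 in the VR pair, and its call ended when the probes of a gene were averaged. Blk ranged from 9.54 to 10.43 in 595sp, 7.85 to 8.65 in 595sp VR, 5.54 to 6.23 in 638bm and 6.87 to 7.69 in 638bm VR, so that the lines named VR lay between the others.

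Among genes higher in the 638bm lines, the potassium channel gene Kcnk1 ranged from 10.77 to 12.68 in 638bm and from 8.08 to 8.89 in 638bm VR, against 4.66 to 5.84 in the 595sp lines. Homer2, a scaffold protein of signalling complexes, ranged from 5.89 to 6.22 in 638bm and from 9.28 to 9.68 in 638bm VR and was above background on 0 arrays of the 595sp lines. As a mean over both 638bm lines it was at least 5.19-fold higher (limma adjusted p = 0.00255), a call that ended without background correction. That bound does not hold for 638bm alone, since Homer2 differed by -1.02 in the sensitive pair and by -4.54 in the VR pair. Hint2, a mitochondrial nucleotide hydrolase, ranged from 8.17 to 8.98 in 595sp and from 5.19 to 5.81 in 595sp VR and lay between 9.49 and 10.95 in the 638bm lines. Tctex1d2, a dynein light chain gene, and Slc25a45, a mitochondrial carrier gene, were instead higher in the 595sp lines. Their medians were 9.34 and 9.63 there and 6.20 and 6.02 in the 638bm lines. Both were above background on all 6 arrays of 638bm and 0 of 638bm VR. Their differences were 1.90 and 2.47 in the sensitive pair and 4.18 and 4.59 in the VR pair. The neddylation gene Dcun1d4, higher in the 638bm lines, differed by -3.28 in the sensitive pair and -1.27 in the VR pair.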

How the data were processed

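RNA of 4 mouse cell lines was measured on 1-colour Illumina bead arrays, 24 in all. The deposited table of average bead signal holds intensities that were not normalized, per the file headers. The authors' processed intensity values have the same distribution on every array, and their making is not stated in the labels or headers. Neither table gives control probes or detection values. Signals were corrected with normexp (saddle-point fit, offset 16), quantile normalized and put on the log2 scale from the deposited intensities, in limma 3.58.1 under R 4.3.3. Background was the mode of each array's log2 signals, with its SD from the values below the mode, and a probe above it by 2.326 SD (detection p of 0.01) on at least 2 arrays was kept. Of 45281 probes, 34885 had 1 gene symbol in the platform annotation, 18 several and 10378 none. Each gene took its probe with the highest mean. Both 24 h arrays of a line entered as their mean, and 595sp minus 638bm was fitted with the 10 matched pairs as fixed blocks and line as a random block (consensus correlation 0.539, 9 residual and 5.94 prior degrees of freedom). P-values were Benjamini-Hochberg adjusted over all genes tested. A bound was given for a gene not above background at any probe in the dim group. It set the mean of the bright group over both its lines against the higher of the dimmest detected signal and the dim group's own.

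The members and the 25 gene lists were chosen with earlier results of these data known. Named genes were, with provisional symbols left out, the 12 called in each direction with the largest smallest difference over the 10 pairs, the 6 in each direction above background on all 24 arrays, up to 4 called per list, and the 4 in each direction with the largest change between the VR and sensitive pairs. The 2 in each direction by change from 0 to 24 h gave no gene. Myc, Bcl2l1, Psmb5 and sex-linked genes were always named, and no probe carried the symbol Ddx3y. The number of arrays limits the precision.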

Additional observations from a re-analysis of the deposited data

Results flagged for a closer look

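For 12 named genes the origin difference of the VR pair departed from that of the sensitive pair by more than 1 log2 unit in limma's treat test. Each value is the VR pair minus the sensitive pair on the log2 scale, over 5 times in each pair. Among genes higher in the 595sp lines, the value was -5.43 for App (limma treat adjusted p = 1.22e-08), -3.16 for Blk (1.45e-06), -1.94 for Fcer1g (0.000591), -1.83 for Itgb7 (0.0129), 2.28 for Tctex1d2 (5.43e-05) and 2.12 for Slc25a45 (4.58e-05). Among genes higher in the 638bm lines, it was 3.74 for Kcnk1 (6.3e-06), -3.57 for Hint2 (6.79e-08), -3.52 for Homer2 (8.85e-09), 2 for Dcun1d4 (0.0015) and 1.71 for Afdn (0.00519). The Y-linked gene Kdm5d, which was not called, had a value of -1.82 (0.000789), with 1.45 in the sensitive pair and -0.37 in the VR pair. Each pair holds 1 line of each origin, so these values describe 4 lines.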

How the results depend on the processing

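The count of 319 called genes moved to 206 without background correction and with the authors' processed values, to 198 with a normexp offset of 50, to 0 with line means of 2 against 2, and to 5 in the 4 second 24 h arrays, which lie in 1 run of 6 table columns (chosen after seeing the data). The last 2 settings have fewer samples. Leaving out 1 time or 1 pair of lines gave from 299 to 1806 calls; without the VR pair it was 1806 and without the sensitive pair 1098, where a call needs 1 log2 unit in 1 pair only. With the 24 h arrays matched by number as a replicate block, 318 were called, and with column run as a further block 284. Background signal differed between runs, from 5.45 to 5.54 log2 units in the run of 6 595sp-named arrays and from 5.86 to 6.19 in the others, and 2 of the 4 runs held 1 origin alone. The second run held no matched pair, so no value within it could be had. All 52 named called genes kept their direction in every setting run. The call rule asks for 1 log2 unit the same way in both pairs of lines. Leaving out a pair therefore could not reverse a called gene, and leaving out a time hardly could. Of the 52, 41 stayed called in every setting with a test other than line means and the single column run. The other 11 were App, Blk, Cdkn1a, Creb3l2, Homer2, Hoxb5, Ifitm1, Lef1, Ly6c1, Ppp1r13b and Vpreb3. The authors' processed values gave the same count, and the same chromosome and stretch medians, as the table without background correction. These settings are therefore not separate checks. The offset and background correction act on dim probes, and signal close to background limits every difference whose lower group was not above it.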

Other observations

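In 138 genes the origins differed by at least 1 log2 unit in both pairs of lines but in opposite directions, 92 of them higher in 595sp than in 638bm and lower in 595sp VR than in 638bm VR, and 46 the reverse. The genes described here were chosen after their values were seen. Cd63, a tetraspanin of late endosomes, had line medians of 12.46 in 595sp, 8.02 in 595sp VR, 6.09 in 638bm and 11.89 in 638bm VR, with pair differences of 6.46 and -4.05. Psmd8, a subunit of the proteasome's regulatory particle, had medians of 10.51, 7.08, 8.12 and 10.47 in the same order and pair differences of 2.39 and -3.48. Rag1, a recombinase of lymphocyte precursors, differed by -2.77 in the sensitive pair and by 3.01 in the VR pair, and the growth factor gene Tgfb3 by 2.91 and -2.77.

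Some genes stood apart in 1 line. Igf2, an imprinted growth factor gene, had medians of 5.04, 5.08 and 5.64 in 595sp, 595sp VR and 638bm and of 8.59 in 638bm VR. Dlk1, imprinted as well, had medians of 5.33, 5.22, 5.95 and 7.65 in that order, and Ccnd1 shared the high level in 638bm VR. In 595sp, the costimulatory receptor gene Cd28 had a median of 8.79 against 5.16 to 5.53 in the other 3 lines, the nucleic acid sensor gene Tlr7 8.90 against 5.01 to 5.18, the signalling adaptor gene Tyrobp 8.48 against 4.98 to 5.49 and Csf1r 8.31 against 5.24 to 5.55. Meis2, a homeobox gene, was lowest in 595sp, with a median of 5.38 against 7.49 to 8.85.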
